A study of Mus musculus with 9 samples.

Results

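The 9 mouse genes described here act on the tails of histone H3 from the side opposite to Polycomb: the H3K27 demethylases Kdm6a and Kdm6b, the H3K27 acetyltransferases Crebbp and Ep300, the H3K4 methyltransferases Kmt2a, Kmt2b, Kmt2c and Kmt2d, and Men1, the menin scaffold of one class of MLL complex. They were taken by gene symbol, and all 9 were found among the 33212 rows of the deposited count table. Polycomb repressive complex 2, through EZH2 or EZH1, adds methyl groups to lysine 27 of histone H3, a mark of silenced genes. KDM6A and KDM6B take these groups off, CBP (the product of Crebbp) and p300 (the product of Ep300) can place an acetyl group on the same lysine, and the MLL enzymes methylate lysine 4 at promoters and enhancers. KMT2C and KMT2D share a complex with KDM6A, whereas KMT2A and KMT2B bind menin, whose gene is a tumour suppressor of endocrine tissues that include the pancreatic islet.

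The cells were αTC1, a mouse cell line of glucagon-producing pancreatic alpha cells derived from a tumour. A total of 5 libraries came from cells kept 7 days with DMSO, the solvent control, and 4 from cells kept 7 days with EPZ011989, a small-molecule inhibitor of the EZH2 methyltransferase, at 4 µM in the labels. All were grown in low-glucose medium, and poly-A RNA was sequenced. The labels give no other genotype or agent, and one cell line stands for alpha cells throughout. The replicates are labelled biological but no label says that each was its own culture, and the p-values therefore reflect variation among these 9 libraries only, which may be partly technical. The question that the design addresses is how EPZ011989 changes gene expression in this line.

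Each library held 60274140 to 74651782 gene counts. In a principal component analysis the first component (58.0% of the variance) separated the treatments, while the second (10.9%) had EPZ011989 library 2 at one end and EPZ011989 library 4 at the other. The alpha cell label held: glucagon (Gcg) was at 19280 CPM (counts scaled to a common library size) with DMSO and at 18633 with EPZ011989. Of 8 beta cell markers 4 could be tested and 3 were called higher, while Ins1, Pdx1 and Ucn3 had a count of 0 in every library. Over all tested genes 16.2% were called higher and 7.96% lower. The summed level of the beta cell markers was 38.3 to 43.5 CPM with DMSO and 44.3 to 56.8 CPM with EPZ011989. Most of it came from Nkx6-1, which was not called (means 39.9 and 44.3 CPM). The called genes were low: Ins2 had means of 0.65 and 4.85 CPM, Mafa 0.54 and 1.78 CPM, and Iapp 0.03 and 0.84 CPM. Of 11 fibroblast and stellate cell markers, 7 could be tested and 6 were called higher, with a summed level of 7.9998 to 10.9 CPM with DMSO and 44.4 to 53.6 CPM with EPZ011989. Of 7 endothelial markers 3 could be tested and 2 were called higher (summed level 0.374 to 1.16 CPM, then 2.02 to 3.41 CPM), and of 7 leukocyte markers 2 could be tested and 1 was called higher (1.02 to 1.89 CPM, then 4.32 to 5.75 CPM). Of 9 duct and acinar markers 4 could be tested and 1 was called lower (13.4 to 19.3 CPM, then 12.2 to 16.3 CPM), with Cftr, Prss2 and Ptf1a at 0. The filter on low counts was passed only with the help of the EPZ011989 libraries by 3 of the 6 fibroblast markers called higher (Col1a1, Pdgfrb and Thy1), by 1 of the 3 beta cell markers (Iapp), by 1 of the 2 endothelial markers (Kdr) and by the leukocyte marker Lyz2. Such genes had to be higher there to be tested, so these counts are a description only. The part of the marker genes in the results below was not tested.

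For 7 of the 9 genes RefSeq (GRCm38.p6) gives a window of 300 bases at the transcription start; Kdm6b and Kmt2b had none. The windows of Kdm6a, Kmt2d and Men1 are shown because the results turn on these genes: Kdm6a and Men1 are those whose call depended most on how the libraries were handled, and Kmt2d is the longest of the genes that moved together from library to library. Each is written 5′ to 3′ on the gene's strand, with CpG dinucleotides in capitals.
Kdm6a, chrX:18162325-18162624, plus strand: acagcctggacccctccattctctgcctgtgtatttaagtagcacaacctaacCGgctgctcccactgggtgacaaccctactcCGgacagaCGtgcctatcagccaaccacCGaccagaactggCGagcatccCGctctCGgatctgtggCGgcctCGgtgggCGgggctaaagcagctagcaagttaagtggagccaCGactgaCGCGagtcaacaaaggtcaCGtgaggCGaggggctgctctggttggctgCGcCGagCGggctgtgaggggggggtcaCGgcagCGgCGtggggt
Kmt2d, chr15:98871156-98871455, minus strand: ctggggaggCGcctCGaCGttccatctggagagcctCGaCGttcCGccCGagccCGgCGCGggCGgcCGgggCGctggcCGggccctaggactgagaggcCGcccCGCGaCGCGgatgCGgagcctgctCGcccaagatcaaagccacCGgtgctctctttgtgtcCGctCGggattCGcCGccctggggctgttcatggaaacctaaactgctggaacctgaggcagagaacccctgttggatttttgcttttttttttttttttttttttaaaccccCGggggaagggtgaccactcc
Men1, chr19:6334729-6335028, plus strand: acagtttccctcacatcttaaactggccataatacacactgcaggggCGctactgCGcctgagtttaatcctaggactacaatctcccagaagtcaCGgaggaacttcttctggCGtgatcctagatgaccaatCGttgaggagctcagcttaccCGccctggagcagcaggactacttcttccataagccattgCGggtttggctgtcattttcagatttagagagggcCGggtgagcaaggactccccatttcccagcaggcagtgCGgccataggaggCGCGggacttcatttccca
Kdm6a holds 21 CpG dinucleotides here, Kmt2d 27 and this window of Men1 11, and the counts for the others are 30 for Ep300, 36 for Kmt2a, 49 for Crebbp and 56 for Kmt2c. All 7 genes lie above the median of 7 over all 32851 RefSeq windows, and 99.8% of windows hold fewer than Kmt2c. Of 4 motifs searched on both strands, none of which contains another, the short core of the cAMP response element (TGACG), bound by CREB, the factor that recruits CBP and p300, occurred in Kdm6a and in none of the other 6. It occurs in 20.8% of all windows. The CCAAT box (CCAAT, 37.4% of windows) occurred in Men1 alone, and neither the NRF1 site (4.60%) nor the TATA box (TATAAA, 13.6%) was found in any of the 7.

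None of the 9 genes passed the test between EPZ011989 and DMSO. With edgeR's quasi-likelihood test and Benjamini-Hochberg adjustment over all 14754 tested genes, the adjusted p ranged from 0.282 (Kmt2b) to 0.984 (Kmt2d), and 0 of 9 reached an unadjusted p under 0.05. DESeq2 also called 0 of 9 (29.5% of all genes it tested), and so did limma-voom (26%). Over all tested genes 24.1% were called, 16.2% as higher and 7.96% as lower, and 35.1% had an unadjusted p under 0.05. The groups did not overlap for 24.9% of all tested genes and for 0 of the 9. Of the 9 log2 fold changes, 4 were positive and 5 negative, with a median of -0.04 beside 0.03 over all tested genes.

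**Figure D1:**
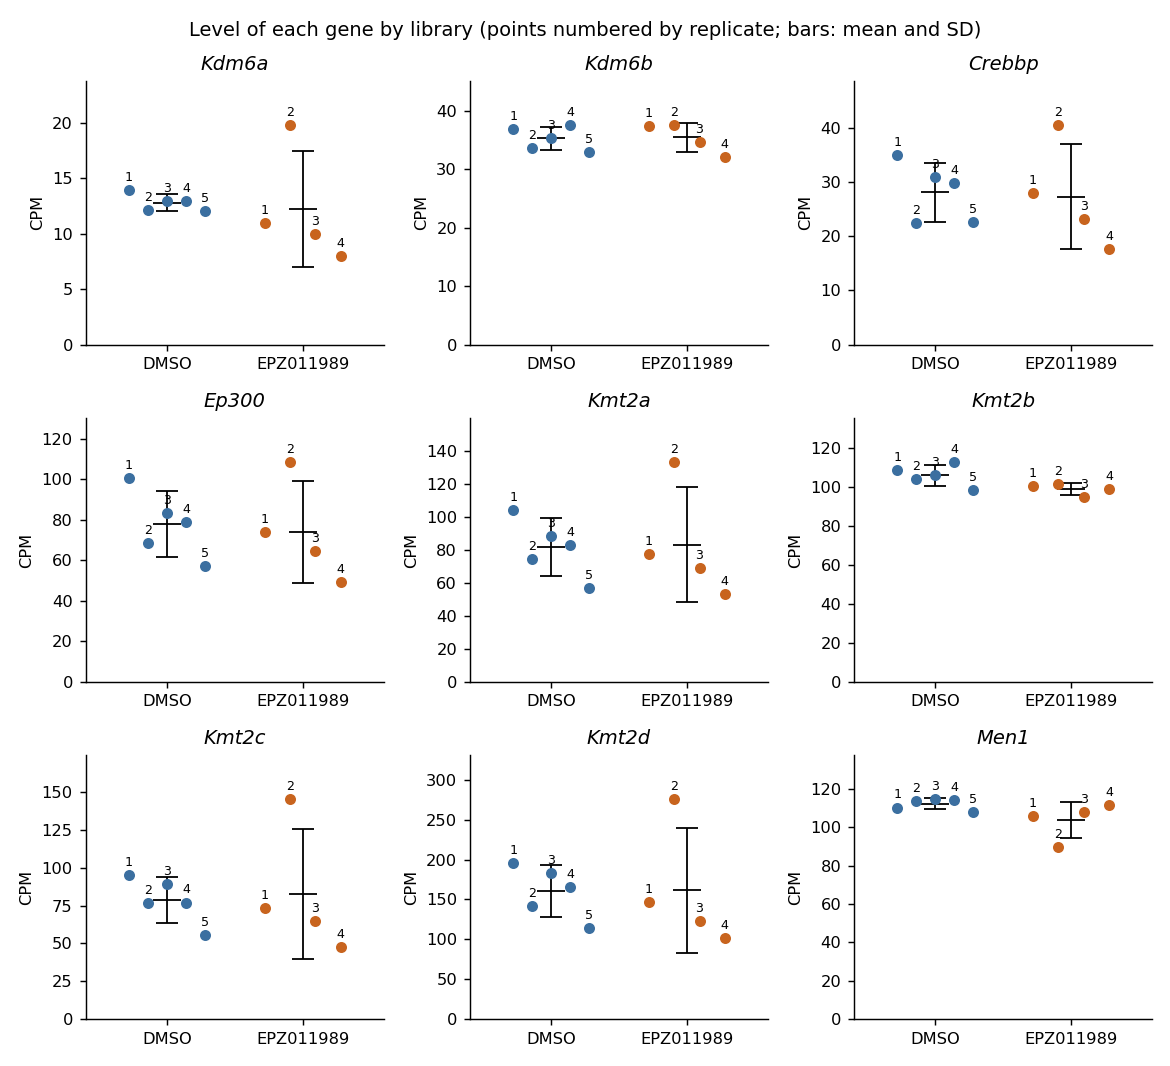
Level of each of the 9 genes in every library, in CPM on TMM-scaled library sizes, for 5 DMSO and 4 EPZ011989 libraries; horizontal lines are group means, bars are 1 SD and every axis starts at 0. Library 2 is the highest EPZ011989 point for 8 of the 9 genes and the lowest for Men1, and the groups overlap in all 9 panels.

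**Figure D2:**
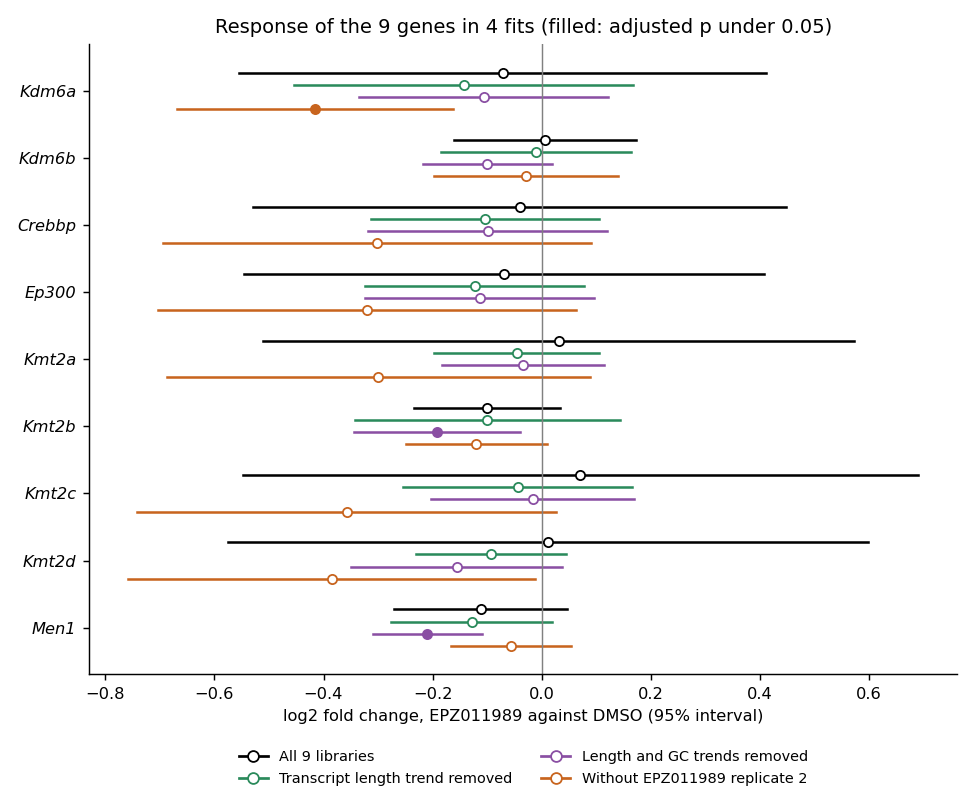
Log2 fold change of each gene, EPZ011989 against DMSO, with its 95% interval from edgeR's quasi-likelihood fit, with all 9 libraries, with the length trend or the length and GC trends removed, and without EPZ011989 library 2; filled points have an adjusted p under 0.05. With all libraries as counted every interval includes 0, and without library 2 the intervals of Kdm6a (-0.67 to -0.16) and Kmt2d (-0.76 to -0.01) do not, of which Kdm6a is filled.

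Kdm6a (ENSMUSG00000037369, GRCm38 chromosome X, 18162575 to 18279936, plus strand), which encodes the H3K27 demethylase UTX, was at 14.0, 12.2, 12.9, 13.0 and 12.1 CPM in DMSO libraries 1 to 5. In EPZ011989 libraries 1 to 4 it was at 11.001, 19.8, 10.01 and 7.97 CPM. Of the EPZ011989 libraries, 3 thus lay below every DMSO library, while library 2 lay above all of them. The means were 12.8 ± 0.8 CPM (SD, n = 5) and 12.2 ± 5.2 CPM (SD, n = 4), a log2 fold change of -0.07 (SE 0.22, 95% interval -0.55 to 0.41, adjusted p = 0.867 by edgeR's quasi-likelihood test). Without EPZ011989 library 2 the difference was -0.42 (95% interval -0.67 to -0.16) with an adjusted p of 0.0164 in the same test, so that 1 of the 9 genes was called, in a comparison that then called 35.6% of all tested genes, and 15.9% as lower. Without EPZ011989 library 3 or library 4 the sign turned, to 0.01 and 0.06. The sign and the call of Kdm6a therefore rested on single libraries.

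Kdm6b (ENSMUSG00000018476, chromosome 11, 69398508 to 69413675, minus strand) encodes JMJD3, the other H3K27 demethylase, known as an enzyme that signalling can induce. It was at 36.9, 33.6, 35.3, 37.6 and 32.9 CPM with DMSO and at 37.4, 37.5, 34.7 and 32.2 CPM with EPZ011989. Neither group stood above the other and library 2 was level with library 1. The means, 35.3 ± 2.0 CPM (n = 5) and 35.4 ± 2.6 CPM (n = 4), gave a log2 fold change of 0.01, with a 95% interval of -0.16 to 0.17 and an adjusted p of 0.968 (edgeR). Exons of Kdm6b share 286 bp with the antisense gene Kdm6bos, which had 29 counts in the 9 libraries together.

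The ratio of both demethylases moved with the library. Per kb of transcript, Kdm6b was at 2.36 to 2.59 times the level of Kdm6a in the DMSO libraries and at 3.04, 1.69, 3.09 and 3.60 times in EPZ011989 libraries 1 to 4. Of the 4 EPZ011989 libraries, 3 had a higher ratio than any DMSO library and 1 had a lower ratio than any. No counts of Uty, the Y-linked relative of Kdm6a, were recorded in any of the 9 libraries (0 counts), which allows up to 0.161 to 0.199 CPM in a library at 3 fragments of 4 counts each, for counting error only.

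Crebbp (ENSMUSG00000022521, chromosome 16, 4081328 to 4213997, minus strand) encodes CBP, an acetyltransferase and coactivator. Its level was 34.9, 22.3, 30.9, 29.7 and 22.5 CPM with DMSO and 27.9, 40.5, 23.2 and 17.6 CPM with EPZ011989. EPZ011989 library 2 was above and library 4 below all DMSO libraries, and libraries 1 and 3 lay among them. The log2 fold change was -0.04 (SE 0.22, 95% interval -0.53 to 0.45, adjusted p = 0.928 by edgeR).

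Ep300 (ENSMUSG00000055024, chromosome 15, 81585351 to 81652077, plus strand) encodes p300, the paralog of CBP. It was at 100.6, 68.4, 83.5, 78.8 and 57.4 CPM with DMSO and at 73.9, 108.5, 64.8 and 49.2 CPM with EPZ011989, with the same order of libraries in the EPZ011989 group as Crebbp. The log2 fold change was -0.07 (SE 0.22, 95% interval -0.54 to 0.41, adjusted p = 0.869 by edgeR). Both acetyltransferase genes moved by similar factors from library to library: the level of Ep300 per kb was 2.88 to 3.46 times that of Crebbp over all 9 libraries, so that this ratio spanned 1.201-fold from its lowest to its highest value. Its mean was 3.13 ± 0.23 (SD, n = 5) with DMSO and 3.09 ± 0.09 (n = 4) with EPZ011989, and the groups overlapped.

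Kmt2a (ENSMUSG00000002028, chromosome 9, 44803355 to 44881296, minus strand) encodes MLL1, the H3K4 methyltransferase that binds menin and maintains Hox gene expression. It was at 104.3, 74.6, 88.3, 83.1 and 56.6 CPM with DMSO and at 77.3, 133.1, 68.9 and 53.3 CPM with EPZ011989. EPZ011989 library 2 was above and library 4 below the whole DMSO range. The log2 fold change was 0.03 (SE 0.25, 95% interval -0.51 to 0.57, adjusted p = 0.951 by edgeR), and without EPZ011989 library 2 it was -0.30.

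Kmt2b (ENSMUSG00000006307, chromosome 7, 30568858 to 30588726, minus strand) encodes the closest relative of MLL1, which also binds menin. It was at 108.6, 104.0, 106.0, 112.7 and 98.3 CPM with DMSO and at 100.3, 101.4, 94.7 and 98.9 CPM with EPZ011989. Of the EPZ011989 libraries, 3 lay inside the DMSO range, between its lowest and second lowest values, and library 3 lay below it. The means were 105.9 ± 5.3 CPM (n = 5) and 98.8 ± 3.0 CPM (n = 4), a log2 fold change of -0.10 (SE 0.06, 95% interval -0.23 to 0.03, adjusted p = 0.282 by edgeR).

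Kmt2c (ENSMUSG00000038056, chromosome 5, 25271798 to 25498783, minus strand) and Kmt2d encode the enhancer methyltransferases that share a complex with KDM6A. Kmt2c was at 95.1, 77.1, 89.3, 77.1 and 55.5 CPM with DMSO and at 73.2, 145.5, 65.2 and 47.3 CPM with EPZ011989. Library 2 stood 2.35-fold above the mean of the other 3 EPZ011989 libraries, the widest such step among the 9 genes. The log2 fold change was 0.07 (SE 0.28, 95% interval -0.55 to 0.69, adjusted p = 0.899 by edgeR), and -0.36 without library 2.

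Kmt2d (ENSMUSG00000048154, chromosome 15, 98831669 to 98871204, minus strand) was at 196.3, 142.2, 183.0, 165.8 and 114.6 CPM with DMSO and at 147.0, 275.7, 122.9 and 100.98 CPM with EPZ011989. It followed Kmt2c in both groups, with library 2 above and library 4 below every DMSO library. The log2 fold change was 0.01 (SE 0.27, 95% interval -0.57 to 0.60, adjusted p = 0.984 by edgeR) and -0.38 (adjusted p = 0.101 by edgeR) without library 2. Per kb, Kmt2d was at 1.39 to 1.62 times the level of Kmt2c in all 9 libraries, a span of 1.17-fold, with means of 1.54 ± 0.09 (SD, n = 5) and 1.495 ± 0.088 (n = 4) and overlapping groups.

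Men1 (ENSMUSG00000024947, chromosome 19, 6334979 to 6340891, plus strand), which encodes menin, was at 110.3, 113.9, 114.7, 114.2 and 108.1 CPM with DMSO. With EPZ011989 it was at 105.7, 89.9, 107.9 and 111.9 CPM. Library 2, the highest of the EPZ011989 libraries for the other 8 genes, was the lowest for Men1, at 0.8289 times the mean of the other 3 EPZ011989 libraries. Library 1 and library 3 also lay just below the DMSO range, and library 4 lay inside it. The means were 112.3 ± 2.9 CPM (n = 5) and 103.9 ± 9.6 CPM (n = 4), a log2 fold change of -0.11 (SE 0.07, 95% interval -0.27 to 0.05, adjusted p = 0.307 by edgeR). The level of Men1 per kb ranged from 3.74 to 11.6 times that of Kmt2a over the 9 libraries, but only from 2.52 to 3.25 times that of Kmt2b.

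The 9 genes differed in their spread between libraries of one treatment. For Kmt2a, Kmt2c, Kmt2d, Crebbp and Ep300, the SD of the log2 level was 0.29 to 0.33 in the DMSO group and 0.47 to 0.68 in the EPZ011989 group, beside medians of 0.11 and 0.19 over the 10049 genes averaging 5 CPM or more. In the DMSO group these 5 exceeded at least 97.5% of those genes, and in the EPZ011989 group at least 94.9%. Kdm6a was as steady as other genes with DMSO (0.08) and among the most variable with EPZ011989 (0.56). Kdm6b (0.08 and 0.11), Kmt2b (0.07 and 0.04) and Men1 (0.04 and 0.14) lay below both medians. Kmt2b was among the steadiest genes of the EPZ011989 group, where 3.05% of genes had a smaller SD. The libraries at the ends were shared: 6 of the 9 genes were highest within the DMSO group in library 1, 8 were lowest in DMSO library 5, 8 were highest within the EPZ011989 group in library 2, and 7 were lowest in EPZ011989 library 4.

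These same libraries differed over all genes in a way that followed transcript length. Relative to its mean over the 9 libraries, the median gene of at least 10 kb (329 genes) was at 0.64 on the log2 scale in EPZ011989 library 2, at -0.28 in EPZ011989 library 4, at 0.16 in DMSO library 1 and at -0.24 in DMSO library 5. The median gene under 2 kb (4248 genes) was at -0.15 in EPZ011989 library 2 and at 0.22 in EPZ011989 library 4. The longest GENCODE coding transcripts of Kmt2d (19.8 kb), Kmt2a (16.5 kb), Kmt2c (14.97 kb) and Crebbp (10.8 kb) are in the first bin and that of Ep300 (9.57 kb) is close to it. Kmt2b (8.47 kb), Kdm6b (6.65 kb) and Kdm6a (5.94 kb) are shorter, and Men1 (2.98 kb) is the shortest. Transcript GC content varied alongside: 42.5% for Kdm6a, 47.6% to 51.7% for Kmt2c, Kmt2a, Ep300 and Crebbp, and 58.4% to 59.6% for Kmt2d, Men1, Kmt2b and Kdm6b. The part of length and GC content in the levels of the 9 genes was not tested beyond the fits given below.

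**Figure D3:**
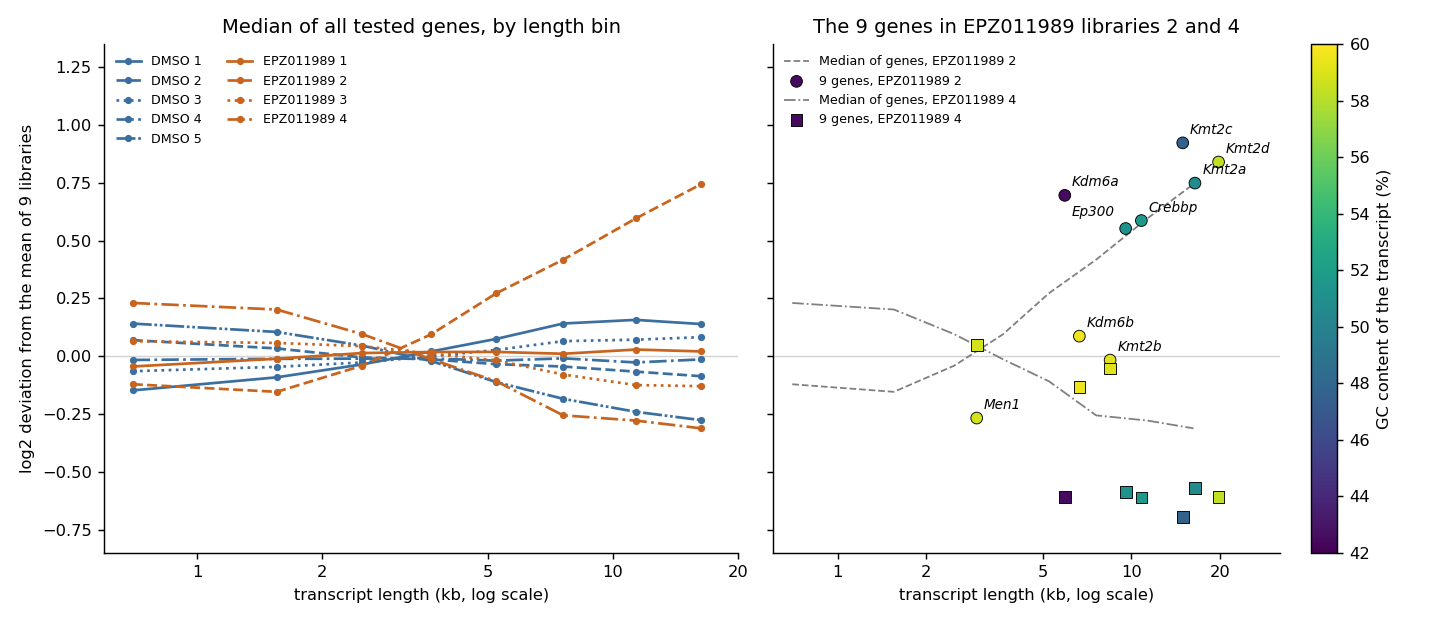
Left, the median over all tested genes in 8 bins of transcript length of the log2 deviation of each library from the mean of all 9; right, the 9 genes in EPZ011989 libraries 2 and 4, coloured by GC content of the transcript, with the all-gene medians as lines. Length is on a log axis in kb; Kmt2a, Kmt2c, Kmt2d, Crebbp, Ep300 and Kdm6a lie at 0.55 or more in library 2 and at -0.57 or less in library 4, while Kdm6b and Kmt2b lie near 0.

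Against genes of their own length alone, Kmt2a, Crebbp and Ep300 lay near the median line in EPZ011989 library 2, and in library 4 all 3 lay below it. With GC content of 50% to 55% also matched, Ep300 was at 0.55 in library 2 beside a median of 0.29 for 7 to 10 kb. Kmt2a (0.75) and Crebbp (0.59) lay beside 0.59 for at least 10 kb in that GC range. Kmt2c was at 0.92 beside 0.63 (at least 10 kb, GC under 50%) and Kmt2d at 0.84 beside 0.50 (at least 10 kb, GC at least 55%). Kdm6a stood at 0.70 in library 2 and at -0.61 in library 4, beside medians of 0.39 and -0.25 for genes of 5 to 7 kb with a GC content under 50%, and Kmt2b stood at -0.02 in library 2, below the median of 0.30 for genes of 7 to 10 kb with a GC content of at least 55%. With a smooth trend on transcript length removed from each library, the SD of the log2 level in the EPZ011989 group fell from 0.56 to 0.07 for Kmt2a, from 0.63 to 0.08 for Kmt2d and from 0.68 to 0.21 for Kmt2c, but rose from 0.04 to 0.29 for Kmt2b and from 0.11 to 0.17 for Kdm6b. Removing the trend thus narrowed the spread of the 3 longest genes and widened that of Kmt2b and Kdm6b. With this trend removed, edgeR called 0 of 9 genes (31.8% of all tested genes). With it removed and EPZ011989 library 2 left out, edgeR called Kdm6a alone, at a log2 fold change of -0.34 and an adjusted p of 0.00875 (42.9% of all tested genes).

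With trends on both length and GC content removed, an alternative chosen after seeing the data, edgeR called 2 of the 9 genes as lower, beside 36.9% of all tested genes called and 17% called lower. Men1 was then at 105.8 to 119.5 CPM in the DMSO libraries and at 96.7 to 102.5 CPM in the EPZ011989 libraries. The log2 fold change was -0.21, with an adjusted p of 0.00326 by edgeR. Kmt2b was at -0.19 with an adjusted p of 0.0482. Leaving out EPZ011989 library 2 as well gave 3 calls (42.5% of all tested genes), with Men1 at -0.20 (adjusted p = 0.00273), Kmt2d at -0.25 (0.00494) and Kdm6a at -0.23 (0.0465), while Kmt2b, at an adjusted p of 0.0690, was no longer called. Removing such trends also removes any part of a treatment difference that itself follows length or GC content. The log2 fold change of Men1 was negative in all 32 alternatives, between -0.21 and -0.06, and called in 2 of them.

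Levels of different genes were compared per kb of the longest coding transcript. In the DMSO libraries Men1 was the highest at 37.7 ± 1.0 CPM per kb (SD, n = 5), followed by Kmt2b at 12.5 ± 0.6, Ep300 at 8.12 ± 1.70 and Kmt2d at 8.09 ± 1.64. Then came Kdm6b at 5.30 ± 0.30, Kmt2c at 5.27 ± 1.02, Kmt2a at 4.94 ± 1.07, Crebbp at 2.59 ± 0.51 and Kdm6a at 2.16 ± 0.13. With DMSO, menin's gene thus stood apart from the MLL enzymes, and Kmt2b from the other 3 of them. These genes differ in transcript length, and the libraries differed in a way that followed length. Within the DMSO group, Men1 (2.98 kb) was at 5.86 to 10.6 times the level of Kmt2a (16.5 kb) per kb. The part of length in these differences between genes was not tested. Ep300 and Kmt2d overlapped in their DMSO ranges, as did Kdm6b with Kmt2c, Kmt2c with Kmt2a, and Crebbp with Kdm6a. The DMSO ranges of Ep300 and Kmt2d also overlapped those of Kmt2c and Kmt2a, and that of Kdm6b overlapped that of Kmt2a. In the EPZ011989 libraries the order was the same except that Kmt2d (8.15 ± 3.95, n = 4) came before Ep300 (7.75 ± 2.62) and Kmt2c (5.53 ± 2.88) before Kdm6b (5.33 ± 0.38), exchanges inside the spread. Dividing by summed exon length in place of one transcript lowered Men1 to 29.3, Ep300 to 5.45 and Kmt2c to 3.88 CPM per kb with DMSO.

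**Figure D4:**
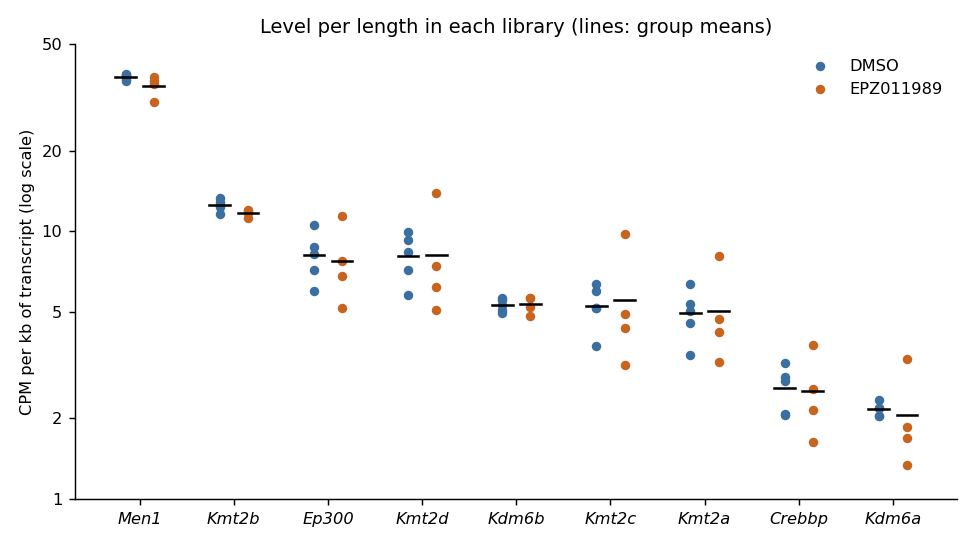
Level per kb of transcript (CPM per kb, log axis) of the 9 genes, ordered by their DMSO mean, with each library as a point and the groups in different colours. In the DMSO libraries Men1 and Kmt2b lie above the other 7 genes, while in EPZ011989 the highest points of Kmt2d (13.9) and Ep300 (11.3) reach the range of Kmt2b; the points of both groups overlap for every gene.

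The genes closest to each of the 9 in pattern over the 9 libraries were sought among 9740 genes, by the root mean square difference in log2 level after centring on the DMSO mean. For Kmt2a the closest was Kmt2d (0.0723), with Prrc2c (transcript of 11.5 kb) next at 0.0731. For Crebbp the closest was Ep300 (0.0744), with the zinc finger gene Zfp236 (9.63 kb) next at 0.0764. For Kmt2d and Kmt2c they were Vps13c (0.06, 11.5 kb) and Vps13a (0.07, 10.8 kb), both genes of large lipid-transfer proteins, and for Ep300 it was Zfp236 (0.05). The part of transcript length in this likeness was not tested. Kdm6a was closest to Smc2 (0.07), a condensin subunit gene. The steady genes had closer neighbours: Ckap5 (0.03) for Kdm6b, Ints7 (0.03) for Kmt2b and Rab7 (0.04) for Men1.

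Genes that work with these 9 were counted in lists taken from textbook knowledge. Of 17 subunits of MLL and SET1 complexes, 0 were called higher and 2 lower, with a median log2 fold change of -0.07. Ash2l, a core subunit of all MLL complexes, fell from 100.03 ± 3.27 to 81.3 ± 9.1 CPM (log2 fold change -0.30, adjusted p = 0.0200 by edgeR). Setd1a, the methyltransferase of a SET1 complex, fell from 137.7 ± 7.4 to 120.8 ± 3.8 CPM (-0.19, adjusted p = 0.0451). The core subunit Wdr5 was at 92.3 ± 5.1 and 88.9 ± 7.4 CPM (adjusted p = 0.671 by edgeR). The call of Ash2l was lost without DMSO library 3 (adjusted p = 0.0502 by edgeR), DMSO library 4 (0.0606) or EPZ011989 library 1 (0.0532). That of Setd1a was lost without DMSO library 1, 2, 3 or 4 or EPZ011989 library 1, 3 or 4, at adjusted p-values up to 0.120. Without EPZ011989 library 2 the list had 7 called members, in a fit that called 35.6% of all tested genes.

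Of 18 other histone acetyltransferases and p160 coactivators, 0 were called higher and 1 lower: Kat2a, which encodes GCN5, fell from 188.9 ± 7.8 to 147.0 ± 22.8 CPM (log2 fold change -0.36, adjusted p = 0.0224 by edgeR). That call was lost without DMSO library 4 (adjusted p = 0.0620 by edgeR), DMSO library 5 (0.0503) or EPZ011989 library 1 (0.0529). Without EPZ011989 library 2 the list had 4 calls, in a fit that called 35.6% of all tested genes. Among 9 tested partners of CBP and p300 from the CREB, CRTC and CITED families, 1 was called, and it was higher: Cited1 rose from 2.11 ± 0.35 to 3.76 ± 0.74 CPM (0.83, adjusted p = 0.00811), and remained called in all 32 alternatives. Of 16 genes of the histone deacetylase family and their corepressors, 2 were called, both higher. Hdac7 rose from 2.52 ± 0.79 to 11.1 ± 2.0 CPM (2.13, adjusted p = 7.3e-05 by edgeR) and Hdac5 from 9.65 ± 0.55 to 20.01 ± 1.32 CPM (1.05, adjusted p = 7.3e-06), both in all 32 alternatives. Of 15 tested bromodomain genes, whose products read acetyl-lysine, 1 was called: Baz1a fell from 45.3 ± 3.9 to 29.4 ± 9.9 CPM (-0.62, adjusted p = 0.0295 by edgeR), a call lost without DMSO library 2 (0.0549) or EPZ011989 library 3 (0.0893).

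Of 13 tested other demethylases of the JmjC family, to which KDM6A and KDM6B belong, 1 was called: Phf2 rose from 67.1 ± 3.8 to 80.9 ± 5.6 CPM (log2 fold change 0.27, adjusted p = 0.0179 by edgeR), a call lost without DMSO library 3 (0.0749), DMSO library 5 (0.0622) or EPZ011989 library 1 (0.0965). Of 8 tested genes of H3K4 demethylases and their cofactors, which undo the work of the MLL enzymes, 2 were called, both higher. Rcor2, a corepressor of the demethylase LSD1, rose from 18.1 ± 1.5 to 27.2 ± 4.3 CPM (0.59, adjusted p = 0.00369), also in all 32 alternatives. Kdm5b rose from 17.4 ± 1.9 to 22.7 ± 2.6 CPM (0.38, adjusted p = 0.0254 by edgeR), which was lost without DMSO library 2, 3 or 5 or EPZ011989 library 3 or 4 at adjusted p-values up to 0.0882. Of 18 other methyltransferases of histone H3, 1 was called higher and 1 lower. Setdb1, an H3K9 methyltransferase, fell from 95.6 ± 6.8 to 74.8 ± 7.3 CPM (-0.35, adjusted p = 0.00980) in all 32 alternatives. Prdm9 was called higher, at 9.25 ± 0.58 and 11.2 ± 0.7 CPM (0.28, adjusted p = 0.0439 by edgeR), but in none of the 9 fits that left out 1 library. Ezh2, which encodes the target of EPZ011989, was at 199.2 ± 5.5 and 209.2 ± 6.8 CPM (adjusted p = 0.407 by edgeR), and its paralog Ezh1 at 36.6 ± 2.3 and 38.5 ± 2.0 CPM (adjusted p = 0.548).

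Of 10 genes known from other work to depend on menin and MLL1, 4 were called higher and 0 lower. Their median log2 fold change was 0.23 beside 0.03 over all tested genes. Mef2c, a transcription factor of muscle and blood cells, rose from 0.296 ± 0.111 to 3.12 ± 0.55 CPM (3.39, adjusted p = 1.3e-05 by edgeR), and Pbx3, a homeobox partner of Hox proteins, rose from 1.00 ± 0.12 to 2.69 ± 0.54 CPM (1.42, adjusted p = 3.84e-04). Both were called in all 32 alternatives. Cdkn2c, which encodes the cell cycle inhibitor p18, rose from 276 ± 10 to 328 ± 24 CPM (0.25, adjusted p = 0.0184 by edgeR). That call was lost without DMSO library 1, 3, 4 or 5 or EPZ011989 library 1, 3 or 4, at adjusted p-values up to 0.108. Cdkn1b, the p27 inhibitor gene that menin is also known to sustain, was at 256.8 ± 23.8 and 296.9 ± 48.1 CPM (adjusted p = 0.212 by edgeR). Hoxa9 and Hoxa10, the best known targets of MLL1, were at 11.1 ± 1.0 and 13.2 ± 0.7 CPM with DMSO and at 9.95 ± 0.89 and 14.4 ± 0.9 CPM with EPZ011989, and neither was called.

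**Figure D5:**
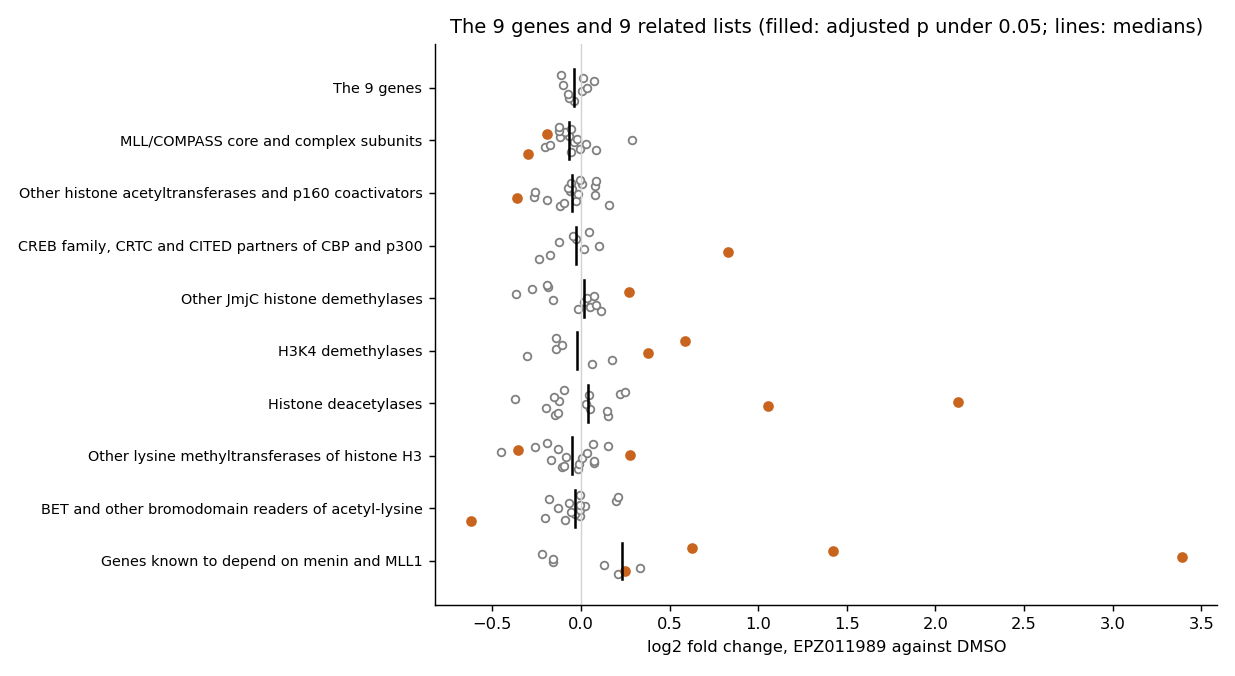
Log2 fold change, EPZ011989 against DMSO, of the 9 genes and of the tested members of 9 related lists; each point is a gene, filled where edgeR's adjusted p is under 0.05, and vertical lines are list medians. The 9 genes lie between -0.11 and 0.07 with no filled point, and Mef2c (3.39) and Hdac7 (2.13) lie farthest from 0.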

How the data were processed

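Poly-A RNA-seq libraries of αTC1 cells, 5 with DMSO and 4 with EPZ011989, were grouped by their titles. Whole-number counts per gene, as the authors deposited them, fill a table of 33212 rows. Per the submitters' processing notes, the mouse build was mm10 and the tools were HISAT2, StringTie and DESeq2, with neither roles nor versions. Whether counting used the strand is not given in the sources used here. Many counts come in steps of about 4, so counts are not independent reads. A second, normalized table was not used. Every pair of libraries of a group differed by more than sampling noise (chi-square over degrees of freedom at least 4.19), and 0 rows lacked a gene name.

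In R 4.3.3, edgeR 4.0.16 was used for the low-count filter (filterByExpr), TMM scaling and a robust quasi-likelihood F test with treatment as the only term. P-values are two-sided and Benjamini-Hochberg adjusted over 14754 genes, with calls under 0.05. The SE is approximate, from the log2 fold change and its F statistic (size over root F), and 95% intervals use the moderated degrees of freedom. CPM values use TMM-scaled library sizes and are given as mean ± SD over libraries. Deviations and likeness used log2(CPM + 0.1). Positions, lengths and GC content come from GENCODE M21 on GRCm38, the assembly of mm10, using the longest coding transcript, and promoter windows from RefSeq. Trends on length or GC content were lowess fits (span 0.5) per library. Levels per kb rest on counts that overlapping genes could share: exons of Kmt2a overlap an antisense gene over 378 bp, those of Kmt2c another gene over 274 bp and those of Ep300 a microRNA model over 54 bp.

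The 9 genes and all lists were chosen with earlier results of these data known. The text names all 9, from each list the called genes with the 3 smallest p-values plus Uty, Wdr5, Ezh1 and Ezh2, and for likeness up to 3 closest genes with at least 5 CPM; some genes that this rule takes are not reported here. The marker genes, Cdkn1b, Hoxa9, Hoxa10 and Meis1 were named after their values were seen. Alternatives were other scaling factors, no filter, a replicate block, DESeq2 1.42.0, limma-voom (limma 3.58.1), leaving out libraries and removing trends. Tested on simulated data of 13901 genes for this comparison, calls were made for 68% of 100 genes set to a 1.5-fold change, for 97% of 100 set to a 2-fold change and for 16 genes left as they were. The changed genes had at least 5 CPM with DMSO, and genes varied independently, with no trend on length or GC content. These rates therefore need not hold for Kdm6a, Kmt2a, Kmt2c, Kmt2d, Crebbp and Ep300, whose SE was 0.22 to 0.28. Replicate numbers did not pair the libraries: deviations of the 4 pairs with the same number correlated at 0.01, -0.10, -0.04 and 0.03.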

Additional observations from a re-analysis of the deposited data

How the results depend on the processing

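Of 288 refits of the 9 genes over 32 alternatives, 7 gave a call, as described for Kdm6a, Men1, Kmt2b and Kmt2d, and 89 had the opposite sign, none of them with a larger log2 fold change than 0.38 in size. Kdm6b was at -0.011 with RLE factors, -0.01039 with DESeq2, -0.01025 with the length trend removed, at -0.002854 unfiltered, -0.001544 with counts divided by 4, -0.003816 without the span trend and -0.10 without length and GC trends. Kmt2d was at -0.01022 with RLE factors, -0.01019 with DESeq2, -0.00034 unfiltered, -0.002758 with counts divided by 4, -0.074 with limma-voom, and -0.093, -0.0155 and -0.16 without the length, span, and length and GC trends. Kmt2a was at -0.026 with limma-voom and at -0.046, -0.040 and -0.035 without these trends, and Kmt2c at -0.036 with limma-voom and at -0.044, -0.10 and -0.017. Without EPZ011989 libraries 2 and 4 together, Kmt2a was at -0.16, Kmt2c at -0.19 and Kmt2d at -0.25. Crebbp was at 0.0096 with upper-quartile factors and 0.011 with library size alone. Leaving out 1 library, with or without a trend removed, gave -0.42 to 0.058 for Kdm6a, -0.075 to 0.068 for Kdm6b, -0.30 to 0.17 for Kmt2a, -0.21 to 0.019 for Kmt2b, -0.36 to 0.23 for Kmt2c, -0.38 to 0.15 for Kmt2d, -0.30 to 0.095 for Crebbp and -0.32 to 0.0585 for Ep300. The number of the 9 called was 0 to 3 in these fits and 2 with length and GC trends removed.

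With the replicate block Kdm6b was at -0.019, Kmt2a at -0.16, Kmt2c at -0.16 and Kmt2d at -0.20; none of the 9 was called. The block called 2021 genes (1550 higher, 471 lower) beside 3562 (2388 higher, 1174 lower) without it. It left 0 calls among MLL complex subunits, acetyltransferases and JmjC demethylases, 1 each among H3K4 demethylases and H3 methyltransferases, and 2 among menin-dependent genes.

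Leaving out 1 library, with or without a trend removed, gave 2740 to 6401 called genes, 1861 to 3394 higher and 781 to 3022 lower. Without EPZ011989 library 2 alone there were 5316, and 6401 with the length trend removed as well. Genes called lower were 776 with upper-quartile factors, 2056 with the length trend removed and 2515 with length and GC trends removed, where 5440 were called in all; the cause was not tested. Calls per list after leaving out 1 library ranged from 0 to 7 for MLL subunits, 0 to 6 for acetyltransferases, 1 to 5 for CREB, CRTC and CITED genes, 0 to 4 for JmjC demethylases, 1 to 5 for H3K4 demethylases, 2 to 11 for deacetylases, 1 to 10 for H3 methyltransferases, 0 to 6 for bromodomain genes and 2 to 7 for menin-dependent genes. The share of all tested genes called was 35.6% without EPZ011989 library 2 and 42.9% with the length trend removed as well. With all libraries it was 36.9% with length and GC trends removed and 31.8% with the length trend alone removed. Length and GC trends removed gave 4 MLL subunits, 5 acetyltransferases, 3 CREB-related genes, 5 JmjC genes, 10 deacetylases, 6 H3 methyltransferases and 5 bromodomain genes. The length trend alone gave 4 acetyltransferases, 3 JmjC genes, 5 deacetylases, 5 H3 methyltransferases and 4 bromodomain genes, and the span trend 4 acetyltransferases, 3 CREB-related genes, 2 JmjC genes, 1 H3K4 demethylase and 4 deacetylases. Without EPZ011989 libraries 2 and 4 there were 6 MLL subunits, 2 acetyltransferases, 3 CREB-related genes, 2 JmjC genes, 4 H3K4 demethylases, 4 deacetylases and 4 bromodomain genes. Upper-quartile factors gave 0, 0 and 3 for MLL subunits, acetyltransferases and bromodomain genes, no filter 1, 1 and 2 for MLL subunits, H3 methyltransferases and bromodomain genes, RLE factors 2 CREB-related genes and 1 H3 methyltransferase, DESeq2 2 and 4 of these, and library size alone 5 deacetylases. The length, span and GC trends other than the planned length trend, and summed exon length, were chosen after seeing the data.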
